A study of Homo sapiens with 8 samples.

Results

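The genes described are the writers and readers of DNA methylation DNMT1, DNMT3A, DNMT3B, UHRF1, UHRF2 and MBD2, together with MGMT, a DNA repair gene whose own silencing by promoter methylation is well known in tumours. They were taken by gene symbol from a table of 18902 genes, and all 7 were found and were high enough to be tested. The RNA came from MHCC-97H and from MHCC-97L, related human liver cancer (hepatocellular carcinoma) lines whose names stand for high and low metastatic potential. Control libraries, for which no genotype is given, were set beside libraries of cells stably expressing Flag-OGT, a full-length wild-type O-GlcNAc transferase with a Flag tag at its C-terminus. The 4 groups held 2 libraries each. The construct came from a lentiviral vector that also encodes luciferase, and cells carrying it were selected with neomycin. Whether the controls carried an empty vector or were selected, whether the Flag-OGT cells are a clone, and which promoter drives the transgene are not given in the sources used here. Replicates carry numbers, but nothing says that they came from separate cultures. The p-values therefore rest on library-to-library spread alone, and that spread may be technical.

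DNA methylation marks cytosines that precede guanines (CpG). DNMT3A and DNMT3B place the mark on unmethylated DNA. DNMT1 copies it to the new strand after replication, and UHRF1 brings DNMT1 to hemimethylated sites. Proteins of the MBD family bind the methylated sites, and MBD2 links them to the NuRD histone deacetylase complex. Liver tumours commonly show high DNMT1 and UHRF1 together with loss of methylation over much of the genome and gain of it at CpG-rich promoters. MGMT takes methyl groups off guanine bases in a reaction that uses up the protein, and it protects cells from alkylating drugs.

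The promoter windows listed for these genes differ in how much CpG they hold. Those of a pair of genes that were lower with Flag-OGT and of a pair that were higher are shown. Each line gives the 250 bases before the start site, read 5′ to 3′ on the gene's strand from the RefSeq table for GRCh38.p14, with every CpG in capitals. The expression table is noted as hg19, so these coordinates do not carry over to it.
MGMT: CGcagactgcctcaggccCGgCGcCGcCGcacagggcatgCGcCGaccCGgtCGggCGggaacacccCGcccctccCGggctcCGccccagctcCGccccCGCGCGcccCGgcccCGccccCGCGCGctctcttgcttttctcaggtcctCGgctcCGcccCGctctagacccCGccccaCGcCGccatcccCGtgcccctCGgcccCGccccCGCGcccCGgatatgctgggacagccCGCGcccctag
MBD2: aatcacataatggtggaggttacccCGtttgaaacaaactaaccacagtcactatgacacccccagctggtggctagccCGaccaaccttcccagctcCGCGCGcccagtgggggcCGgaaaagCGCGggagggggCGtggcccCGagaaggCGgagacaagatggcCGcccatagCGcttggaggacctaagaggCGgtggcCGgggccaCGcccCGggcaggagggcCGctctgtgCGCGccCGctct
DNMT1: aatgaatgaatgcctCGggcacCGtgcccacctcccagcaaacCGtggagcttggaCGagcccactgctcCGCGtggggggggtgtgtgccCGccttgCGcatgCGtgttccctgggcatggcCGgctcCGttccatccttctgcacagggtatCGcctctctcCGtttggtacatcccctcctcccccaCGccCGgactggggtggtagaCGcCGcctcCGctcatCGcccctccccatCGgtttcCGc
DNMT3B: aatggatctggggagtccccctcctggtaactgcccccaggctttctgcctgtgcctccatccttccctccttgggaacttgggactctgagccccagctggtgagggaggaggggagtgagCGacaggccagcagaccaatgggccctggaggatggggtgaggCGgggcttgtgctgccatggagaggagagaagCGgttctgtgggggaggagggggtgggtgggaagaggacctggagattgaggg
The MGMT sequence lies on the plus strand at chr10:129466991-129467240, that of MBD2 on the minus strand at chr18:54224670-54224919, that of DNMT1 on the minus strand at chr19:10194954-10195203 and that of DNMT3B on the plus strand at chr20:32779602-32779851. Over the whole window, which adds the 50 bases after the start, MGMT held 45 CpG, and 96.5% of the 35116 windows in the table held fewer. MBD2 held 32 and DNMT1 30 (81.1% and 77.6% held fewer). The only window listed for DNMT3B held 3 (18.2% held fewer, against a median of 14 over all windows). Whether DNMT3B has start sites outside that window was not checked, so its counts here and below describe the listed window alone. UHRF2 held 26, the 3 windows of UHRF1 held 36 to 46 and the 6 of DNMT3A 18 to 46. The motif GGGCGG, searched on both strands and allowing overlaps, occurred 8 times in the MGMT window, 3 times in that of MBD2 and not at all in those of DNMT1 and DNMT3B, while 45.0% of all windows held it. GGAGGAGG, a repeat of the GGA triplets that ZNF263 is known to prefer, had 2 matches in the DNMT3B window and 1 in the DNMT1 window, and occurred in 10.9% of all windows. It also had 1 match in a single DNMT3A window, and 0 matches in those of MGMT, MBD2, UHRF1 and UHRF2. Of 3 letter strings typical of E2F sites, TTTCGCGC had 1 match in the DNMT1 window and 1 in a UHRF1 window (0.515% of all windows held it), TTTCCCGC had 1 in another UHRF1 window (1.63%), and TTTGGCGC had 0 in any of the 7 genes (0.652%). CCAAT had 1 match in the DNMT3B window, and also occurred in the first and the second UHRF1 window (34.6% of all windows). All strings were searched on both strands, and GGGCGG matches can overlap CpG in capitals. These are matches of letters in windows and not measured binding or methylation.

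The libraries were set apart far more by Flag-OGT than by line. On log2(FPKM + 1), replicates correlated with r of 0.997 to 0.999 across genes, the lines compared in a given state with 0.957 to 0.963, and libraries of a line in different states with 0.725 to 0.753. In MHCC-97H, OGT had 32.5 and 34.2 FPKM without and 59.0 and 58.4 FPKM with Flag-OGT, and in MHCC-97L 45.7 and 43.9 FPKM without and 51.0 and 54.5 FPKM with it. For MHCC-97L that difference lost its call with FPKM scaled to a common sum (0.11, adjusted p = 0.099) and with median-of-ratios scaling (0.02, adjusted p = 0.69). Of 10 hepatocyte markers, 4 were under 1 FPKM in the MHCC-97H controls and 1 in those of MHCC-97L, but 10 and 9 with Flag-OGT. Their summed level was 86.2 to 166.6 FPKM in control libraries and 2.25 to 4.92 FPKM in Flag-OGT libraries, with TTR at 0 in all 4 of the latter. The 5 markers of simple epithelium summed to 5674 to 6619 FPKM and 19.1 to 29.9 FPKM. Nearly all of the control sums came from the keratins KRT8, KRT18 and KRT19. CDH1 was low in all groups and fell far less than these keratins. Its control means were 2.86 FPKM (MHCC-97H) and 1.645 FPKM (MHCC-97L), against 1.855 and 0.785 FPKM with Flag-OGT. EPCAM never exceeded 0.21 FPKM, controls included, so it could show little fall. Fibroblast markers (8) summed to 4.54 to 12.2 FPKM in controls and 14.7 to 21.0 FPKM with Flag-OGT, but did not move together. Of those tested, COL1A1 and ACTA2 rose and LUM fell. In MHCC-97H and MHCC-97L, mean ACTA2 went from 0 and 0.08 to 15.6 and 8.81 FPKM. Mean LUM went from 10 and 4.48 to 0.035 and 0.04 FPKM. COL1A2 was at most 0.04 FPKM in any library. Endothelial markers (5) summed to 33.5 to 46.4 and 0.66 to 1.57 FPKM. Most of these sums was ESAM (26.5 to 37.2 and 0.5 to 1.15 FPKM). PECAM1 and KDR also fell, and CDH5 was at most 0.06 FPKM in any library. The 6 measured leukocyte markers summed to 69.0 to 82.5 and 2.75 to 8.70 FPKM. CD68 alone held 63.4 to 79.8 FPKM in controls and 0.97 to 2.38 FPKM with Flag-OGT. Of the others tested, ITGAM fell in both lines. LYZ was not called in MHCC-97H and rose in MHCC-97L (means of 2.79 and 4.69 FPKM, adjusted p = 0.0019). Defining hepatocyte markers were thus at or near 0 in the Flag-OGT libraries. KRT8, a keratin of simple epithelium, averaged 3846 and 4134 FPKM in the controls of either line and at most 12.0 FPKM in any Flag-OGT library. These files do not settle whether libraries labelled Flag-OGT come from the cell lines on their labels. All rises and falls below are therefore differences between libraries labelled control and libraries labelled Flag-OGT, and the part of these marker shifts in them was not tested. In such bulk samples, fewer cells of a type and less RNA per cell cannot be told apart.

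Levels are FPKM, fragment counts scaled to transcript length and library size, so levels of different genes can be set side by side. Changes are differences of log2(FPKM + 1) from a limma fit over all 13553 tested genes, with standard errors and Benjamini-Hochberg adjusted p-values, called under 0.05.

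**Figure D1:**
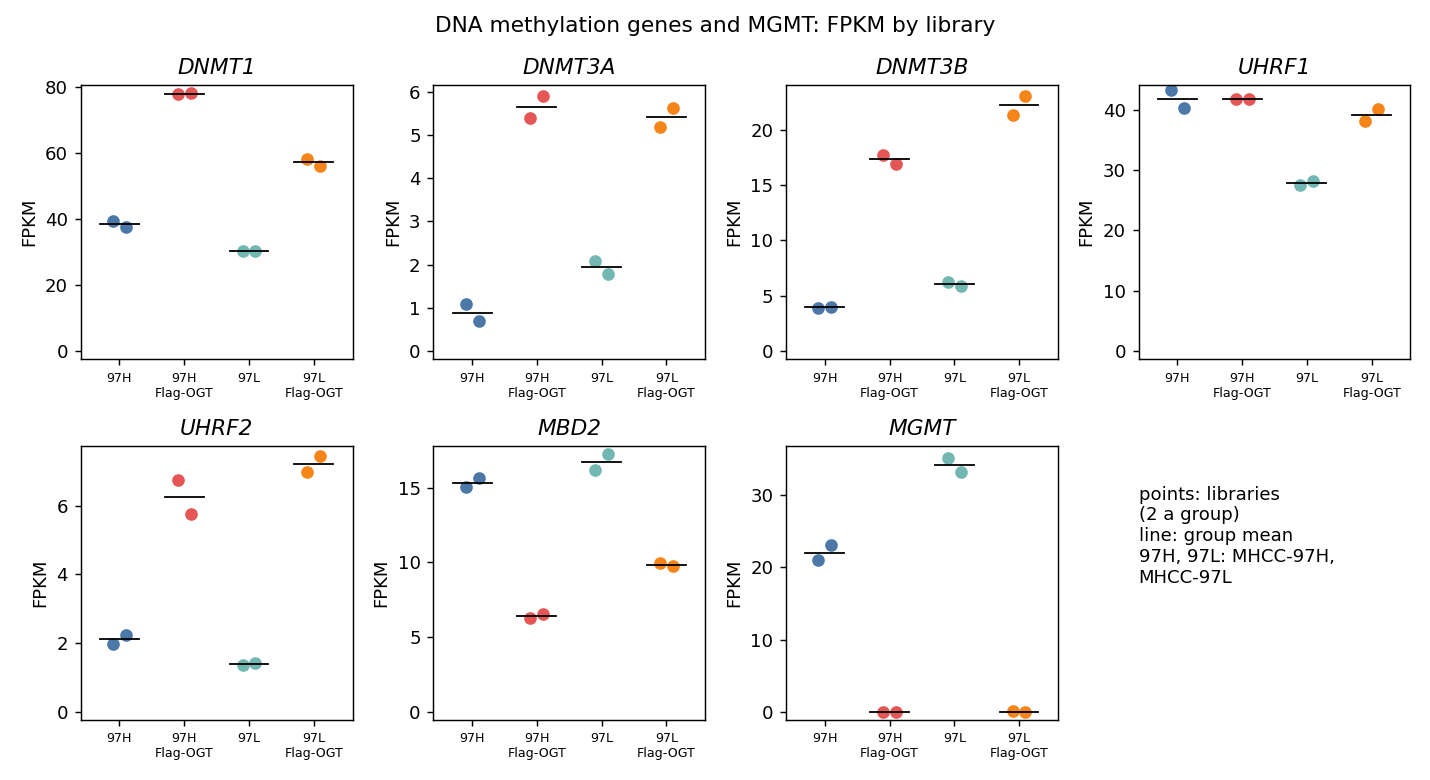
FPKM of each of the 7 genes (vertical axis, linear from 0) in the 4 groups (horizontal axis), with a point per library and a line at the group mean. MGMT sits at 21.0 to 35.1 FPKM in the 4 control libraries and at 0 to 0.08 FPKM in the 4 Flag-OGT libraries. DNMT1, DNMT3A, DNMT3B and UHRF2 have higher group means with Flag-OGT in both lines. Of all tested genes, 48.2% rose in MHCC-97H and 50.1% in MHCC-97L.

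In MHCC-97H the 3 methyltransferase genes and UHRF2 rose with Flag-OGT, MBD2 fell, MGMT fell to 0 and UHRF1 did not differ by the test. In MHCC-97L the directions were the same and UHRF1 rose too. That made 6 of 7 genes called in MHCC-97H, where 84.6% of all tested genes were called, and 7 of 7 in MHCC-97L, where 84.8% were. By direction, 4 rose in MHCC-97H (48.2% of all genes did) and 2 fell (36.3%), and 5 rose in MHCC-97L (50.1%) and 2 fell (34.7%). Since most genes of the table were called, these counts say little about the 7 genes, and the sizes below are read against the median change of all genes, 0.15 in MHCC-97H and 0.19 in MHCC-97L. Median-of-ratios scaling moved those medians to -0.01 and 0.02.

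DNMT1, the maintenance methyltransferase, was the highest of the 3 methyltransferase genes in every library. Its FPKM were 39.5 and 37.6 in the MHCC-97H controls, 77.8 and 78.2 with Flag-OGT, 30.2 and 30.3 in the MHCC-97L controls and 58.2 and 56.1 with Flag-OGT. The group means differed 2.02-fold in MHCC-97H and 1.89-fold in MHCC-97L. The changes were 1.00 ± 0.05 (SE; adjusted p = 2.4e-08) and 0.89 ± 0.05 (adjusted p = 6.6e-08). They were not shown to differ between lines, the 95% interval of the difference running from -0.06 to 0.27 (adjusted p = 0.24).

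DNMT3A, a de novo methyltransferase, was the lowest of the 3 in every library. The MHCC-97H controls had 1.08 and 0.69 FPKM, and the Flag-OGT libraries of that line 5.39 and 5.9 FPKM, a change of 1.82 ± 0.10 (adjusted p = 5.9e-08). The MHCC-97L controls had 2.09 and 1.79 FPKM against 5.19 and 5.63 FPKM, a change of 1.13 ± 0.10 (adjusted p = 3.1e-06). The means differed 6.38-fold in MHCC-97H and 2.79-fold in MHCC-97L. The gain was larger in MHCC-97H by 0.70 ± 0.15 (adjusted p = 0.0025), a size that was 0.35 after quantile normalization (adjusted p = 0.044) and 1.14 with an added 0.1 (adjusted p = 0.0048). The Flag-OGT libraries of both lines reached similar values, and the lines were apart in the controls, where MHCC-97H was lower.

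DNMT3B, the other de novo enzyme, also rose in both lines. Its FPKM went from 3.92 and 4.0 to 17.7 and 16.9 in MHCC-97H and from 6.26 and 5.91 to 21.3 and 23.1 in MHCC-97L. The means differed 4.38-fold and 3.65-fold, with changes of 1.89 ± 0.07 (adjusted p = 1.3e-09) and 1.71 ± 0.07 (adjusted p = 3.3e-09). The difference between lines, 0.18 ± 0.09, was not called (adjusted p = 0.13) except after scaling to a common sum (0.26, adjusted p = 0.043). Values per gene do not separate the isoforms of DNMT3A and DNMT3B, some of which lack catalytic activity.

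The make-up of methyltransferase RNA moved with these changes. DNMT1 held 88.8% ± 0.071 (SD, n = 2) of the summed FPKM of the 3 genes in the MHCC-97H controls and 77.2% ± 0.21 with Flag-OGT. In MHCC-97L its share was 79.0% ± 1.1 and 67.4% ± 1.8. DNMT3B took up most of the gap, from 9.14% ± 0.46 to 17.2% ± 0.57 in MHCC-97H and from 15.8% ± 0.49 to 26.2% ± 1.4 in MHCC-97L. The sum itself was 43.4 ± 1.6 FPKM in MHCC-97H controls and 38.3 ± 0.35 FPKM in MHCC-97L controls, and 101 ± 0.071 and 84.7 ± 0.14 FPKM with Flag-OGT. The DNMT1 share was 78.3% or more in each of the 4 control libraries and 77.4% or less in each of the 4 Flag-OGT libraries. These shares were not tested and are given as descriptions.

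**Figure D2:**
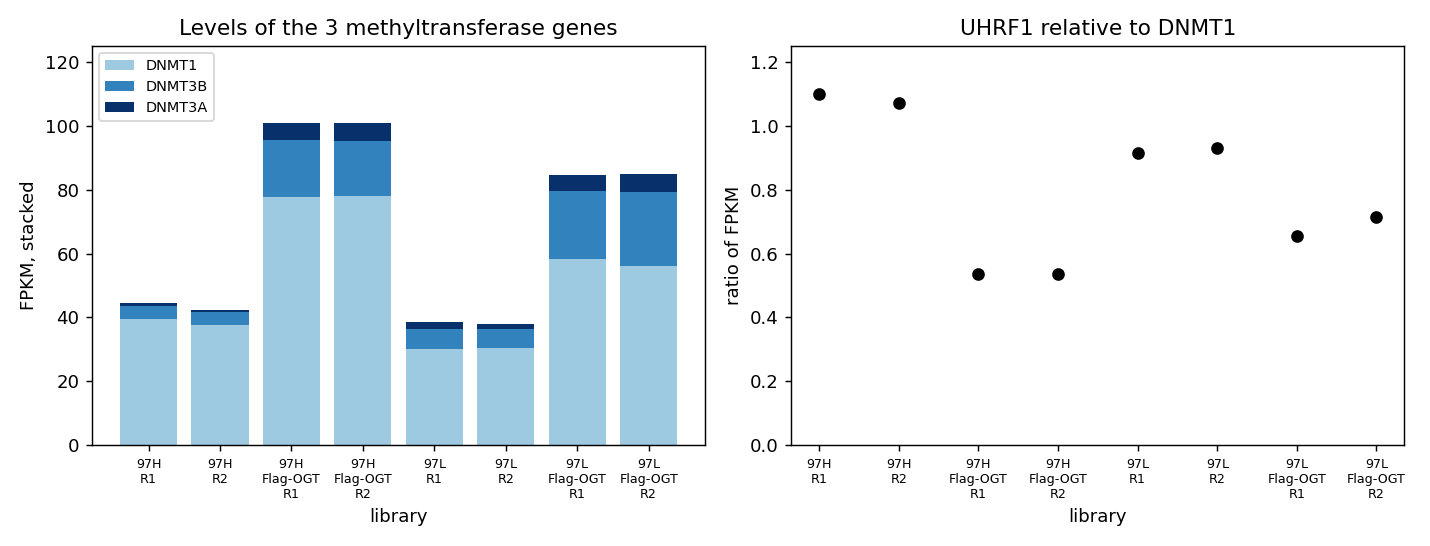
Left, stacked FPKM of DNMT1, DNMT3B and DNMT3A in each of the 8 libraries, from 0. Right, the ratio of UHRF1 to DNMT1 FPKM in the same libraries, which is 1.08 on average in the MHCC-97H controls, 0.923 in those of MHCC-97L, and 0.536 and 0.685 with Flag-OGT.

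UHRF1, the partner that brings DNMT1 to newly copied DNA, did not follow DNMT1 in MHCC-97H. The MHCC-97H controls had 43.4 and 40.3 FPKM and its Flag-OGT libraries 41.7 and 41.9 FPKM, and these values overlapped. The change was 0.00 ± 0.06, with a 95% interval of -0.13 to 0.13 (adjusted p = 1). With median-of-ratios scaling it was -0.20 (adjusted p = 0.0092). In MHCC-97L it rose from 27.6 and 28.3 FPKM to 38.1 and 40.1 FPKM, by 0.47 ± 0.06 (adjusted p = 2.3e-05, and by 0.27 with median-of-ratios scaling, adjusted p = 0.0018). The MHCC-97L controls were thus the low group, and the other 3 groups lay within 38.1 to 43.4 FPKM. The ratio of UHRF1 to DNMT1 was 1.08 ± 0.021 and 0.923 ± 0.011 in the controls and 0.536 ± 0.00071 and 0.685 ± 0.042 with Flag-OGT (SD, n = 2), lower with Flag-OGT in both lines.

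UHRF2, a close relative of UHRF1 that is not known to replace it in maintenance, rose in both lines. Its FPKM were 1.97 and 2.24 in the MHCC-97H controls, 6.74 and 5.77 with Flag-OGT, 1.35 and 1.42 in the MHCC-97L controls and 6.98 and 7.44 with Flag-OGT. It changed by 1.22 ± 0.09 in MHCC-97H (adjusted p = 2.7e-07) and by 1.78 ± 0.09 in MHCC-97L (adjusted p = 1.6e-08), and these sizes differed by the test (adjusted p = 0.0026). On average UHRF1 exceeded UHRF2 20-fold in MHCC-97H controls and 20.2-fold in MHCC-97L controls, and 6.72-fold and 5.43-fold with Flag-OGT.

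MBD2, the MBD-family reader in the set, moved against the methyltransferase genes. The MHCC-97H controls had 15.0 and 15.7 FPKM and its Flag-OGT libraries 6.3 and 6.55 FPKM, 2.39-fold lower, a change of -1.14 ± 0.06 (adjusted p = 4.0e-08). In MHCC-97L it went from 16.2 and 17.3 FPKM to 9.98 and 9.74 FPKM, 1.70-fold lower, a change of -0.71 ± 0.06 (adjusted p = 2.0e-06). The fall was deeper in MHCC-97H (adjusted p = 0.002). MBD3, the alternative MBD subunit of NuRD, which was chosen with its values known, averaged 108 FPKM in controls and 119 FPKM with Flag-OGT in MHCC-97H (adjusted p = 0.098), and 75.2 and 115 FPKM in MHCC-97L (adjusted p = 2.0e-05).

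MGMT showed the largest difference of the 7 genes in both lines. The MHCC-97H controls had 21.0 and 23.0 FPKM, and it was listed at 0 in both of its Flag-OGT libraries. The MHCC-97L controls had 35.1 and 33.2 FPKM and the Flag-OGT libraries 0.08 and 0 FPKM. No fold is given against a group listed at 0. On log2(FPKM + 1) the changes were -4.52 ± 0.08 (adjusted p = 7.0e-12) and -5.08 ± 0.08 (adjusted p = 4.1e-12), which depend on the added 1 and became -7.79 and -7.99 with an added 0.1. Among short genes with a single annotated transcript, low FPKM values piled up at 0.04 to 0.06 when multiplied by length in kilobases, in each of the 8 libraries. Values this low therefore rest on few fragments. Of 78 ribosomal protein genes, used by all cells, 0 were listed at 0 in any library. RPL10L, RPL3L and RPS4Y genes had been left out of that set beforehand. Genes used by all cells would be detected in any usable library, so this does not test the 0 values of MGMT.

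The pattern was looked for in other genes. Of 3296 tested genes with at least 20 FPKM in each control library, 20 (0.607%) were at or under 0.1 FPKM in each Flag-OGT library, and MGMT was among them. Under 1 FPKM in each Flag-OGT library were 120 (3.64%). In the opposite direction, 16 of 3364 genes with at least 20 FPKM in each Flag-OGT library were at or under 0.1 FPKM in each control. The rule was set after the values were seen.

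**Figure D3:**
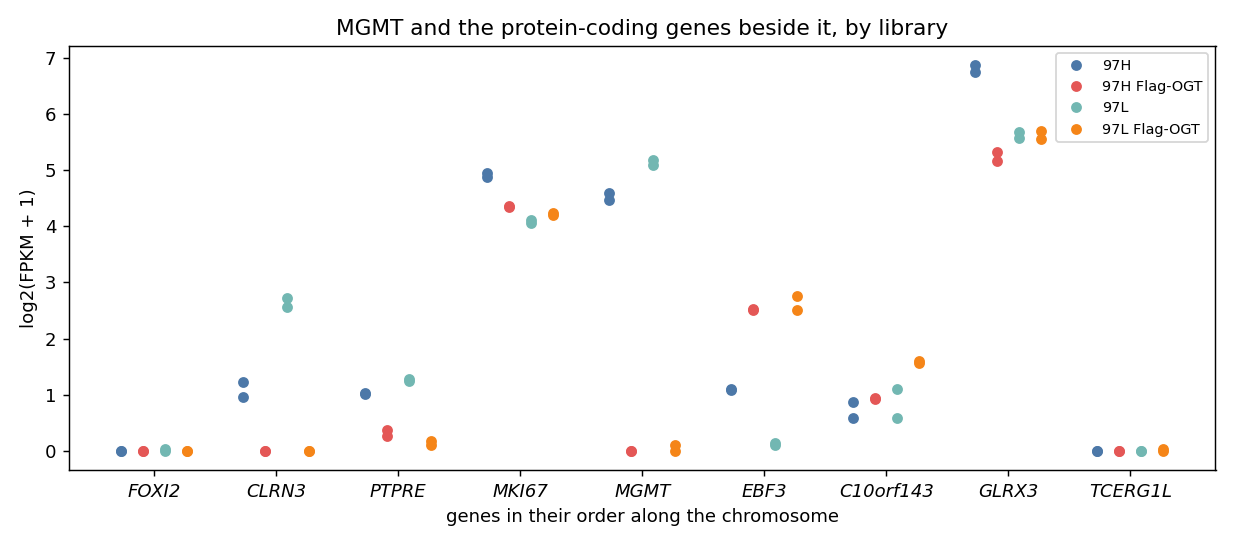
Levels as log2(FPKM + 1) (vertical axis) of MGMT and the 4 protein-coding genes with a value on either side of it, in their order along chromosome 10, with a point per library coloured by group. MKI67 and GLRX3 were well above 0 in all 8 libraries, while MGMT was at or near 0 in the 4 Flag-OGT libraries.

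The genes beside MGMT, also looked up after its values were seen, did not share its pattern as a block. The nearest on one side was MKI67, a proliferation marker, which went with Flag-OGT from 28.3 and 29.9 to 19.2 and 19.4 FPKM in MHCC-97H, and had 16.3 and 15.7 FPKM without and 17.8 and 17.5 FPKM with it in MHCC-97L (adjusted p = 0.051). On the other side EBF3, a developmental transcription factor, was higher with Flag-OGT (1.14 and 1.11 to 4.8 and 4.68 FPKM in MHCC-97H, 0.08 and 0.1 to 4.67 and 5.81 FPKM in MHCC-97L). GLRX3, a glutaredoxin, went in MHCC-97H from 106 and 116 FPKM to 39.0 and 34.7 FPKM with Flag-OGT, and was at 46.1 to 50.6 FPKM in all 4 MHCC-97L libraries. CLRN3 and PTPRE on the MKI67 side were lower with Flag-OGT, CLRN3 from 0.94 and 1.34 FPKM to 0 in MHCC-97H and from 4.91 and 5.59 FPKM to 0 in MHCC-97L. FOXI2 and TCERG1L were at most 0.02 FPKM in any library and so could show no fall, and C10orf143 was at 0.5 to 2.02 FPKM. The comparison thus rests on few genes with enough signal. Gene order is that of GRCh38.p14.

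**Figure D4:**
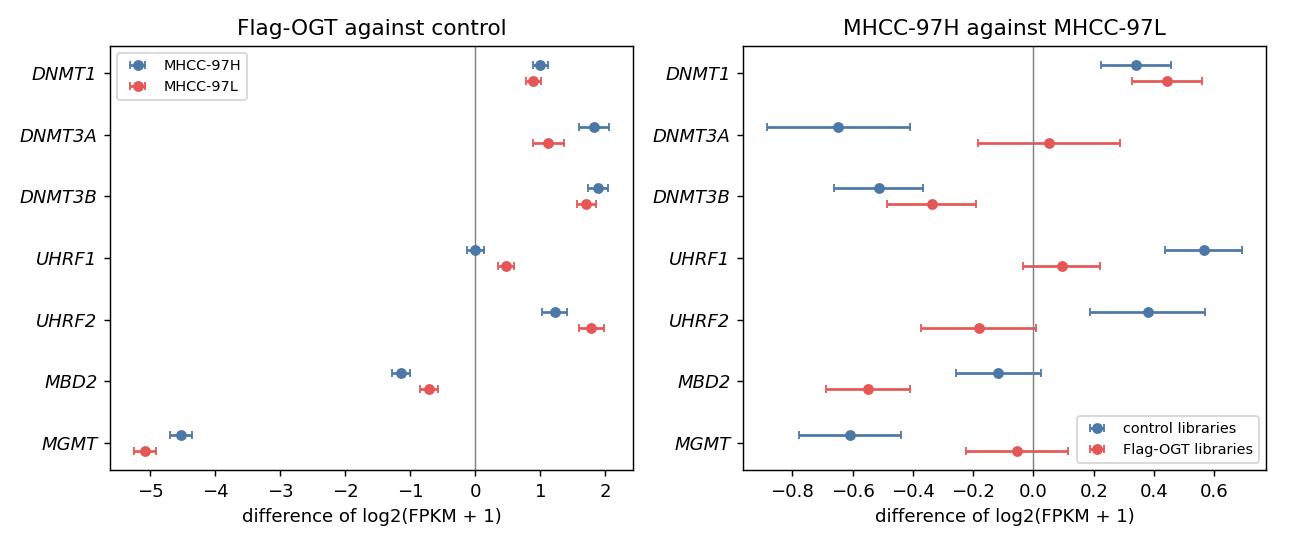
Differences of log2(FPKM + 1) (horizontal axis) for the 7 genes (rows) with 95% intervals from the limma fit. Left, Flag-OGT against control in each line. Right, MHCC-97H against MHCC-97L in control and in Flag-OGT libraries, where the interval of DNMT1 lies above 0 and that of DNMT3B below 0 in both states.

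The change with Flag-OGT itself differed between lines, as MHCC-97H minus MHCC-97L, for 5 of the 7 genes, where 63.3% of all genes differed. The difference was positive for DNMT3A, which rose more in MHCC-97H, and for MGMT, which fell less there (33.9% of all genes were positive). The MGMT difference was 0.21 with an added 0.1 (adjusted p = 0.61), and with Flag-OGT its level was at or near 0 in both lines. The difference between lines was negative for UHRF1, UHRF2 and MBD2 (29.4%). For DNMT1 and DNMT3B no difference was called.

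Between the control libraries of the lines, 6 of the 7 genes differed, where 65.4% of all genes were called. That was 3 higher in MHCC-97H (26.5% of all genes) and 3 lower (38.9%). DNMT1, UHRF1 and UHRF2 were higher in MHCC-97H, by 0.34 ± 0.05 (adjusted p = 2.7e-04), 0.56 ± 0.06 (adjusted p = 1.8e-05) and 0.38 ± 0.09 (adjusted p = 0.0031, and 0.57 after quantile normalization). DNMT3A, DNMT3B and MGMT were lower in MHCC-97H, by -0.65 ± 0.10 (adjusted p = 4.2e-04), -0.51 ± 0.07 (adjusted p = 9.3e-05) and -0.61 ± 0.08 (adjusted p = 6.9e-05). For the low-level DNMT3A the size varied from -1.07 with an added 0.1 to -0.37 after quantile normalization. MBD2 was not called (-0.12, 95% interval -0.26 to 0.02, adjusted p = 0.13). Over all genes 3589 were higher and 5270 lower in MHCC-97H, a split that became 4948 and 4090 with median-of-ratios scaling, 4676 and 4220 with scaling to a common sum and 4547 and 3963 after quantile normalization. No direction of the 6 genes changed with these scalings.

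With Flag-OGT, 3 of the 7 genes differed between lines, where 69.7% of all genes were called, 1 higher in MHCC-97H (33.6% of all genes) and 2 lower (36.1%). DNMT1 was higher in MHCC-97H (0.44 ± 0.05, adjusted p = 3.7e-05). MBD2 was lower there (-0.55 ± 0.06, adjusted p = 3.2e-05), as was DNMT3B (-0.34 ± 0.07, adjusted p = 0.0012), a call lost with scaling to a common sum (-0.15, adjusted p = 0.077). DNMT3A (0.05, 95% interval -0.18 to 0.29) and MGMT (-0.06, -0.23 to 0.11) were not called. UHRF1 (0.09, adjusted p = 0.17) gained a call with median-of-ratios scaling (0.25, adjusted p = 0.0034) and with scaling to a common sum (0.29, adjusted p = 0.0013). UHRF2 (-0.18, adjusted p = 0.083) was called after quantile normalization (-0.26, adjusted p = 0.014) or without the first Flag-OGT library of MHCC-97H (-0.28, adjusted p = 0.038). Over all genes the split of 4551 higher and 4894 lower became 5934 and 3526 with scaling to a common sum and 5668 and 3733 with median-of-ratios scaling.

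The wider list of methylation writers, UHRF proteins and their partners held 22 tested genes, 5 of them from the 7. It also took in histone methyltransferase genes such as EHMT1, SUV39H1 and SETD2, the corepressor gene TRIM28 and replication genes such as PCNA. Its counts and medians are therefore not those of DNA methylation genes alone. With Flag-OGT, MHCC-97H had 16 of the 22 risen and 2 fallen, against 48.2% and 36.3% of all genes, and MHCC-97L 17 and 2, against 50.1% and 34.7%. Their median changes were 0.61 and 0.71, against 0.15 and 0.19 over all genes. Without the 5 genes, 12 of 17 rose and 2 fell in either line, with medians of 0.49 and 0.69. With median-of-ratios scaling the counts were 14 and 5, and 17 and 5. CDCA7, which activates the remodeller HELLS and with it supports maintenance of methylation, rose from 13.9 and 14.3 FPKM to 68.2 and 68.1 FPKM in MHCC-97H and from 9.77 and 10.1 FPKM to 34.1 and 35.8 FPKM in MHCC-97L. HELLS itself rose more in MHCC-97L (7.05 and 7.53 to 22.1 and 23.8 FPKM) than in MHCC-97H (6.91 and 7.35 to 12.0 and 11.8 FPKM; difference adjusted p = 3.8e-05). CDCA7L, a paralog of CDCA7, had 0.02 to 0.21 FPKM in control and 11.2 to 22.4 FPKM in Flag-OGT libraries. LIG1, the replicative ligase to which UHRF1 binds, rose by 1.73 in MHCC-97H and 0.76 in MHCC-97L. NSD1, which writes the histone mark that DNMT3A reads between genes, rose by 1.90 and 1.00. USP7, the deubiquitinase that stabilizes DNMT1 and UHRF1, fell in both lines, from 35.8 and 39.4 to 23.2 and 23.9 FPKM in MHCC-97H and from 35.1 and 33.95 to 22.5 and 23.4 FPKM in MHCC-97L. The other called falls were those of PCLAF in MHCC-97H (-0.83, adjusted p = 3.1e-04) and EHMT1 in MHCC-97L (-0.18, adjusted p = 0.031). DNMT3L, a catalytically inactive cofactor of the de novo enzymes, was at 0 to 0.07 FPKM in all libraries and was not tested.

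Among 22 methyl-CpG readers and NuRD subunits, MBD2 included, MHCC-97H had 14 risen and 7 fallen (48.2% and 36.3% of all genes), and MHCC-97L 10 and 9 (50.1% and 34.7%). The medians were 0.31 and 0.09, against 0.15 and 0.19 over all genes. With median-of-ratios scaling MHCC-97H had 11 risen and a median of 0.11, and the MHCC-97L median was -0.11 (-0.03 with a common sum). The steepest gains were those of RBBP7, a histone-binding subunit (2.13 and 2.29), and MTA1, a NuRD scaffold (2.39 and 1.68). The deepest falls in MHCC-97H were those of ZBTB38, a zinc-finger reader (-1.83), and MBD4, a reader with glycosylase activity (-1.54). In MHCC-97L they were CDK2AP1, a NuRD subunit (-1.42), and the zinc-finger reader ZBTB4 (-1.41).

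The list on demethylation held 17 tested genes, with the TET dioxygenases and DNA glycosylases beside GADD45 genes, base excision repair factors such as PARP1, and the isocitrate dehydrogenases IDH1 and IDH2. In each line 10 rose and 5 fell, where 48.2% and 36.3% of all genes did in MHCC-97H and 50.1% and 34.7% in MHCC-97L. The medians were 0.47 and 0.41, against 0.15 and 0.19 over all genes. With median-of-ratios scaling MHCC-97H had 9 risen and 6 fallen, and the MHCC-97L median was 0.27. PARP1 and LIG3, which serve in strand break repair, were among those that rose, and IDH1, GADD45B and GADD45G among those that fell in both lines. TET1, a dioxygenase that oxidizes methylcytosine, had 0.14 to 0.2 FPKM in control libraries, but 2.58 and 2.52 FPKM in MHCC-97H and 1.55 and 1.72 FPKM in MHCC-97L with Flag-OGT. TET3 rose by 0.78 and 0.48. TDG, the glycosylase that cuts out the oxidized base, fell in MHCC-97H (17.0 and 20.8 to 13.3 and 12.3 FPKM) and rose in MHCC-97L (21.0 and 20.9 to 35.2 and 41.6 FPKM), with a called difference of -1.36 (adjusted p = 2.8e-05). The glycosylase NEIL3 was listed at 0 in all 4 controls and at 6.51 to 9.45 FPKM with Flag-OGT.

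Among 16 tested genes for repair of alkylated DNA, MGMT included, MHCC-97H had 6 risen and 5 fallen, against 48.2% and 36.3% of all genes, and MHCC-97L 10 and 4, against 50.1% and 34.7% (5 and 4 with median-of-ratios scaling). The medians were 0.08 and 0.24, against 0.15 and 0.19 over all genes, and the former was -0.11 with median-of-ratios scaling. The dioxygenase ALKBH2, which like MGMT reverses alkylation directly, was not called in MHCC-97H (38.6 and 34.8, then 36.7 and 35.7 FPKM, adjusted p = 0.82) and fell in MHCC-97L (51.2 and 55.7 to 28.5 and 28.8 FPKM). MPG, the glycosylase for alkylated purines, rose by 1.42 in MHCC-97H and was not called in MHCC-97L (0.20, adjusted p = 0.13). MLH3, a mismatch repair gene, fell from 1.74 to 2.03 FPKM in control libraries to 0.14 to 0.21 FPKM with Flag-OGT. MSH6 rose in MHCC-97L by 0.68 and was not called in MHCC-97H (0.09, adjusted p = 0.34).

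Of 31 S phase genes, MHCC-97H had 22 risen and 4 fallen and MHCC-97L 26 and 0, where 48.2% and 36.3% of all genes rose and fell in the former and 50.1% and 34.7% in the latter. The medians were 0.78 and 0.84, against 0.15 and 0.19 over all genes. In MHCC-97L 5 of the 31 were not called, and with median-of-ratios scaling 22 rose and 3 fell. CDT1, a licensing factor, rose by 2.13 in either line and CDC45, a helicase subunit, by 2.00 and 2.22. The lowest changes in MHCC-97H were those of the cyclin CCNE2 (-0.67) and the clamp loader subunit RFC4 (-0.28). In MHCC-97L the smallest called rises were those of TYMS, which makes thymidylate (0.14), and the cyclin CCNE1 (0.18), and both lost their call with a common sum or median-of-ratios scaling. DNMT1, with 1.00 and 0.89, lay above the medians of this list and UHRF1, with 0.00 and 0.47, below them. In the methionine cycle, which supplies the methyl donor, MHCC-97H had 7 of 11 tested genes risen and 3 fallen and MHCC-97L 5 and 3, near the shares of all genes for the latter (50.1% and 34.7%) and beside 48.2% and 36.3% for the former. The medians were 0.32 and 0.13, and 0.14 and -0.06 with median-of-ratios scaling, where MHCC-97H had 5 risen and 4 fallen. AHCY, which clears the spent donor, rose by 0.52 in MHCC-97H, and ADK, adenosine kinase, by 0.99 in MHCC-97L. MTR, methionine synthase, rose by 1.76 and 1.44, BHMT2, a liver methyltransferase that makes methionine, fell by 2.81 and 3.04, and MAT2A, which makes the donor, fell by 0.27 and 1.14. Of 18 germline genes whose promoters are usually methylated in somatic cells, 14 were in the table and 0 passed the filter, all with group means of at most 1.145 FPKM.

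**Figure D5:**
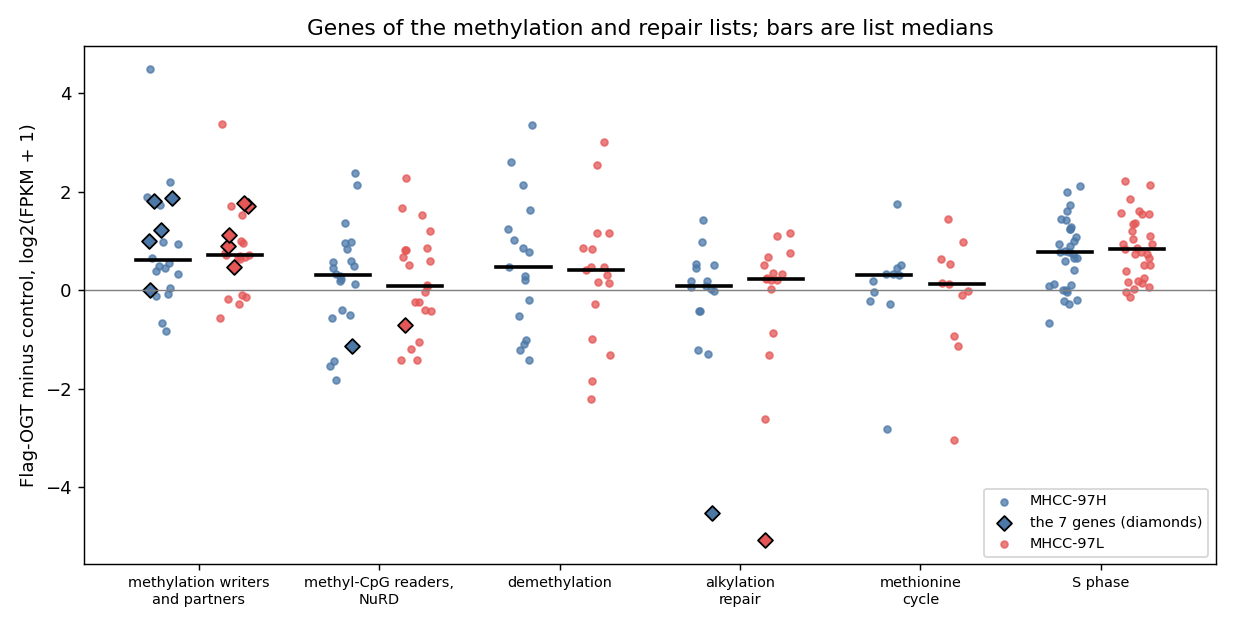
Change with Flag-OGT of each tested gene (vertical axis, difference of log2(FPKM + 1)) in 6 gene lists (horizontal axis), in MHCC-97H and MHCC-97L, with list medians as bars and the 7 genes as diamonds. MGMT lies at -4.52 and -5.08, far below the other alkylation repair genes.

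For each gene, the genes nearest in pattern were found by the root mean square difference of log2(FPKM + 1), centred per gene, over the 8 libraries and among 12994 candidates. With 4 groups of closely alike replicates, near matches among so many candidates can arise without any shared function. How many other genes lay nearly as close was not counted. FKBP4, a cochaperone (0.042), and PAX3, a developmental transcription factor (0.046), were nearest to DNMT1. TIMM29 (0.081) and DEPTOR (0.091) were nearest to DNMT3A, NEK3 (0.079) and SRSF12 (0.087) to DNMT3B, and NHEJ1 (0.046) and TRAPPC10 (0.053) to UHRF1. For UHRF2 they were CDC7, a replication kinase (0.095), and NVL (0.097), and for MBD2 they were PDZD11 (0.041) and DCUN1D1 (0.051). For MGMT they were SNURF (0.114), which shares its transcript with the imprinted SNRPN and cannot be told apart from it here, and HGD, a tyrosine-degrading liver enzyme (0.115). Control libraries held SNURF at 23.4 to 37.3 FPKM and HGD at 25.9 to 36.5 FPKM, whereas Flag-OGT libraries held 0.05 to 0.07 FPKM and 0.03 to 0.08 FPKM.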

How the data were processed

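The tools listed in the submitters' processing notes are DESeq2 1.18.1, RSEM 1.2.4, HISAT2 2.1.0 and Bowtie2, and the genome build is hg19. The sources used here do not say which tool made the deposited FPKM. Trizol extraction and SMARTer cDNA libraries were used, per the labels' protocols. The deposited FPKM table, rounded to 2 decimals by the authors, gave 1 column per library. Of 18928 features, 26 whose symbols had become dates were left out. Summed FPKM ran from 510449 to 613101, and the read depth is not stated, so no counting intervals are given. Genes averaging 0.5 FPKM or more (13553) were tested on log2(FPKM + 1) by limma 3.58.1, with a mean for each of the 4 groups (R 4.3.3, variance trend, 4 residual degrees of freedom), with Benjamini-Hochberg adjustment over all tested genes in each of 5 comparisons. The fit was also run on simulated data in which few genes differed, and those in a single group. Most genes were called here, so that run does not gauge the error rate of these data. Tables and figures used Python 3.11.15, pandas 2.3.3 and matplotlib 3.10.9. The 7 genes and the 7 lists were chosen with earlier results of these data known. Named were the 7 genes, any gene of the writer, demethylation and alkylation repair lists, the 2 highest and 2 lowest called changes of other lists per Flag-OGT comparison, and the 2 genes nearest in pattern to each. MBD3, the genes beside MGMT and the markers were named outside this rule. Chromatin immunoprecipitation libraries of the study were not analysed here, and a gene of the alkylation repair list is not reported here by name.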

Additional observations from a re-analysis of the deposited data

Results flagged for a closer look

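The change with Flag-OGT differed between MHCC-97H and MHCC-97L, by the test of the difference itself in the limma fit, for 5 of the 7 genes, where 63.3% of all tested genes differed. For DNMT3A the change was larger in MHCC-97H by 0.70 ± 0.15 (adjusted p = 0.0025; 1.14 with an added 0.1, 0.35 after quantile normalization). For UHRF1 the difference was -0.47 ± 0.08 (adjusted p = 6.7e-04), for UHRF2 -0.56 ± 0.12 (adjusted p = 0.0026) and for MBD2 -0.43 ± 0.09 (adjusted p = 0.002). In each case the change, not the level, was lower in MHCC-97H, which for MBD2 was a deeper fall. For MGMT it was 0.55 ± 0.11 (adjusted p = 0.0014), with MHCC-97L controls at 33.2 and 35.1 FPKM, MHCC-97H controls at 21.0 and 23.0 FPKM and all Flag-OGT libraries at or near 0. With an added 0.1 the MGMT difference was 0.21 and was not called (adjusted p = 0.61). For OGT, the introduced gene, the gain was larger in MHCC-97H by 0.57 ± 0.08 (adjusted p = 1.9e-04).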

How the results depend on the processing

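Alternatives were an added 0.1, no filter, a mean FPKM of at least 2, 3 scalings, no variance trend, only the groups compared, a replicate block and each library left out in turn (where the lone sample left is assumed to vary like the other groups). Of 544 values for the 7 genes and OGT, 530 kept their side of the threshold and, where called, their direction, 8 lost a call and 5 gained one. The remaining value, UHRF1 in MHCC-97H (0.00 as reported), was -0.20 (adjusted p = 0.0092) with median-of-ratios scaling, and the cause was not tested. All 136 counts of calls stayed within 1.5 times. For the 32 shares and ratios no such check was possible. With 2 libraries a group, leaving 1 out always moves the mean by less than 1 SD. Replicate numbers showed no consistent pairing of the samples: correlations between groups of the difference between replicates ran from -0.206 to 0.309. With the replicate block 11436 genes were called in MHCC-97H and 11473 in MHCC-97L, against 11460 and 11494 without it, and it changed no call of the 7 genes. Depth limits statements on MGMT at or near 0 and on the low-level DNMT3A.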
